A study of Mus musculus with 18 samples.

Results

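The collagen, laminin and integrin genes were followed in cultured mouse OPCs, oligodendrocyte progenitor cells, which divide and give rise to the glia that make myelin in brain and spinal cord. Members were chosen by gene name alone: Col with a chain number, Lama, Lamb or Lamc with a number, and Itga or Itgb with a number or letter. The name rule found 82 genes of 54279 rows, made up of 44 collagens, 11 laminins and 27 integrins. A mean of at least 1 CPM (the count scaled to library size) over the libraries of a table was needed for a test, and 42 members passed in the untreated table, 40 in the drug table, 38 in both and 44 in at least 1. All cells were OPCs made from epiblast stem cells and kept in medium with Fgf2 and Pdgfa, and they carried either a CRISPR edit of Vhl or a CRISPR control. The 6 groups were Vhl cells given 300 nM AZD8330 for 14 h, control cells given the same drug, Vhl cells given DMSO for 14 h, control cells given DMSO, untreated Vhl cells and untreated control cells. Each group had 3 libraries, lettered A to C, and no label ties the letters to separate cultures, so the tests see only the spread between these samples, which may be technical. The labels do not say whether a line was 1 clone or a pool of edited cells.

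Collagens are secreted as trimers of alpha chains, and type IV chains form the sheet of basement membranes together with laminins, which are trimers of an alpha, a beta and a gamma chain. Integrins are heterodimers of an alpha and a beta chain that sit in the cell membrane, bind these matrix proteins and connect them to the actin skeleton and to signalling kinases. In the oligodendrocyte lineage, laminins and their integrin receptors are known for roles in survival, migration and process growth. VHL tags HIF, the hypoxia-inducible factor, for destruction when oxygen is present, and several collagen-modifying enzymes are known HIF targets. AZD8330 inhibits the kinases MEK1 and MEK2, which act upstream of ERK, the pathway that growth factors and integrins both feed.

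Several type IV collagen genes lie in head-to-head pairs in the genome, and the results below return to one such pair and to a pair of integrin genes that lie side by side. Col4a5 (chrX:141475385-141689234, plus strand) and Col4a6 (chrX:141165403-141474076, minus strand) begin 1309 bases apart and read away from each other. Itga1 (chr13:114953096-115101964) and Itga2 (chr13:114833081-114932100) follow each other on the minus strand with 20995 bases between them. Positions are from GENCODE for GRCm38 (mm10). The bases just before each gene start are shown because the 2 genes of the first pair moved the same way under AZD8330 and the 2 genes of the second pair moved in opposite ways. They come from RefSeq (GRCm38.p6), are read 5′ to 3′ on the strand of the gene and are cut where the annotated transcript begins, at 216 bases for Col4a5 (chrX:141475169-141475384, plus strand) and 250 bases for Col4a6 (chrX:141474077-141474326, minus strand), Itga1 (chr13:115101965-115102214, minus strand) and Itga2 (chr13:114932101-114932350, minus strand).
Col4a5: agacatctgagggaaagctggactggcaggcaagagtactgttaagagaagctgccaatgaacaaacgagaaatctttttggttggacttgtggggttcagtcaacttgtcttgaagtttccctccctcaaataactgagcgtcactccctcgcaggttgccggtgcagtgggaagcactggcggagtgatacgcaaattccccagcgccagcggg
Col4a6: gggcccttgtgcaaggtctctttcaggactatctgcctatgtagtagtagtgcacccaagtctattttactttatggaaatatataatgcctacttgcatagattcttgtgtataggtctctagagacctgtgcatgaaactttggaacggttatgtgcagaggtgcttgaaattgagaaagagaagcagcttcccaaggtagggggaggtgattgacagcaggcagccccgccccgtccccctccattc
Itga1: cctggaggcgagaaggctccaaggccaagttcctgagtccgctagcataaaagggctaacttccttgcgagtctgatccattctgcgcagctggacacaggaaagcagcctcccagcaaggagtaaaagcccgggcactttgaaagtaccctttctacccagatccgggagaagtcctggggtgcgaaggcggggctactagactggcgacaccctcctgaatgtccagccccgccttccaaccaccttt
Itga2: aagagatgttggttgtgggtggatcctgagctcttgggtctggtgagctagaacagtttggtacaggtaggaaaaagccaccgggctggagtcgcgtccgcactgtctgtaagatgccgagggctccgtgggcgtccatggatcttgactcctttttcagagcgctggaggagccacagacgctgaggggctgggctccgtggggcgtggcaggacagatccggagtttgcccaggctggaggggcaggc
No letters are in capitals because none of 3 motifs searched on both strands was found in these windows: ACGTG, the core of the hypoxia response element, TGANTCA, an AP-1 motif, and CCGGAAG, an ETS motif. RefSeq gave 34 promoter windows of 250 bases for 32 of the 44 tested members. ACGTG stood in 3 of these 34 (8.8%), in Col11a2, Col1a2 and Col4a4, against 16.6% of all 32851 windows. TGANTCA stood in 1 of 34 (2.9%), that of Col6a1, against 6.7% of all, and CCGGAAG in 0 of 34, against 6.9% of all. A match is a description of the letters, and its absence says only that these letters are not in this window.

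The libraries held 12391077 to 21160250 estimated counts each. Vhl itself averaged 100.1 ± 7.03 CPM in Vhl cells and 138 ± 1.55 CPM in control cells under AZD8330 (SD, n = 3 each, as for all means below), 92.4 ± 2.12 and 106 ± 3.40 CPM in Vhl and control cells under DMSO, and 83.9 ± 8.56 and 121 ± 4.26 CPM in untreated Vhl and control cells. All 10 OPC and oligodendrocyte lineage markers passed the filter, with summed levels of 8129 to 14989 CPM per library, and the fibroblast and mesenchymal marker list summed to 6.81 to 23.7 CPM, with Pdgfrb listed at 0 in every library. Within-group spread was far larger in the untreated table: 25 of 42 members in Vhl cells and 18 of 42 in control cells differed more than 2-fold between the highest and lowest library, against 4 to 10 of 40 in the 4 drug groups. Some genes that every cell uses were listed at very low levels, among them Polr2a, the large subunit of RNA polymerase II, at a mean of 0.505 CPM in the drug table. Of 24 such genes, picked after their values were seen, 9 were under 10 CPM in the drug table, as were 6 among the untreated libraries, so a low listed value of a member does not show that its mRNA was scarce. Why they are listed so low was not tested.

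Most of the tested members differed between AZD8330 and DMSO. In Vhl cells, 20 of 40 members were higher under AZD8330 than under DMSO and 5 were lower (adjusted p under 0.05, edgeR's quasi-likelihood test), where 25.8% of all 13460 tested genes were higher and 25.6% lower. In control cells, 21 of 40 were higher and 8 lower, where 29.1% of all tested genes were higher and 31.7% lower. The median log2 change of the 40 members was 0.56 in Vhl cells and 0.65 in control cells, and that of all tested genes was 0.03 and −0.01. These 2 comparisons share no library: 17 members were higher in both lines, which is 17 of 20 in Vhl cells and 17 of 21 in control cells, and 4 were lower in both, which is 4 of 5 and 4 of 8. The matching share of all 13460 tested genes was not counted, so this overlap cannot be read as particular to the members. In bulk RNA, fewer cells of a type and less RNA per cell cannot be told apart.

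Marker sums of other cell types moved with the drug as well. Astrocyte markers, of which 8 of 8 passed the filter, summed to 2421 to 2503 CPM under AZD8330 and 1629 to 1675 CPM under DMSO in Vhl cells, and to 2580 to 2684 CPM and 1348 to 1378 CPM in control cells. The fibroblast and mesenchymal list, of which 3 of 10 passed, summed to 11.8 to 13.3 CPM under AZD8330 and 6.81 to 7.74 CPM under DMSO in Vhl cells, and to 17.1 to 20.5 CPM and 7.17 to 9.52 CPM in control cells. Of the 3 genes that passed, Thy1 averaged 8.25 ± 0.595 CPM under AZD8330 and 2.73 ± 0.391 CPM under DMSO in Vhl cells and 10.4 ± 0.978 against 3.49 ± 0.773 CPM in control cells. Pi16 averaged 1.81 ± 0.485 CPM under AZD8330 and 0.652 ± 0.561 CPM under DMSO in Vhl cells and 5.45 ± 0.598 against 1.43 ± 0.0863 CPM in control cells, and Twist1 had lower means under AZD8330 in both lines. Pdgfrb was listed at 0 in all 12 libraries, and Lum and Dcn at no more than 0.559 CPM in any. OPC lineage markers summed to 9622 to 9755 CPM under AZD8330 and 9036 to 9220 CPM under DMSO in Vhl cells, and to 8876 to 8961 CPM and 8129 to 8302 CPM in control cells. The endothelial list, of which 3 of 8 passed, summed to 10.7 to 13.1 CPM under AZD8330 and 17.9 to 19.2 CPM under DMSO in Vhl cells, and to 6.29 to 7.52 CPM and 8.87 to 10.8 CPM in control cells, and the pluripotent list, with 3 of 8, summed to 4.77 to 6.35 and 15.8 to 20.1 CPM in Vhl cells and 5.97 to 7.52 and 19.2 to 23.8 CPM in control cells. The Schwann cell list, with 5 of 8, summed to 68.8 to 71.1 CPM under AZD8330 and 92.0 to 96.4 CPM under DMSO in Vhl cells, and to 91.9 to 98.7 CPM and 100.7 to 111 CPM in control cells. The pericyte list, with 4 of 8, summed to 325 to 329 CPM under AZD8330 and 311 to 315 CPM under DMSO in Vhl cells, and to 270.0 to 285 CPM and 276 to 283 CPM in control cells. Cspg4 stands on both the pericyte list and the OPC list, so their sums are not independent. The part of these shifts in the changes of the members was not tested.

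**Figure D1:**
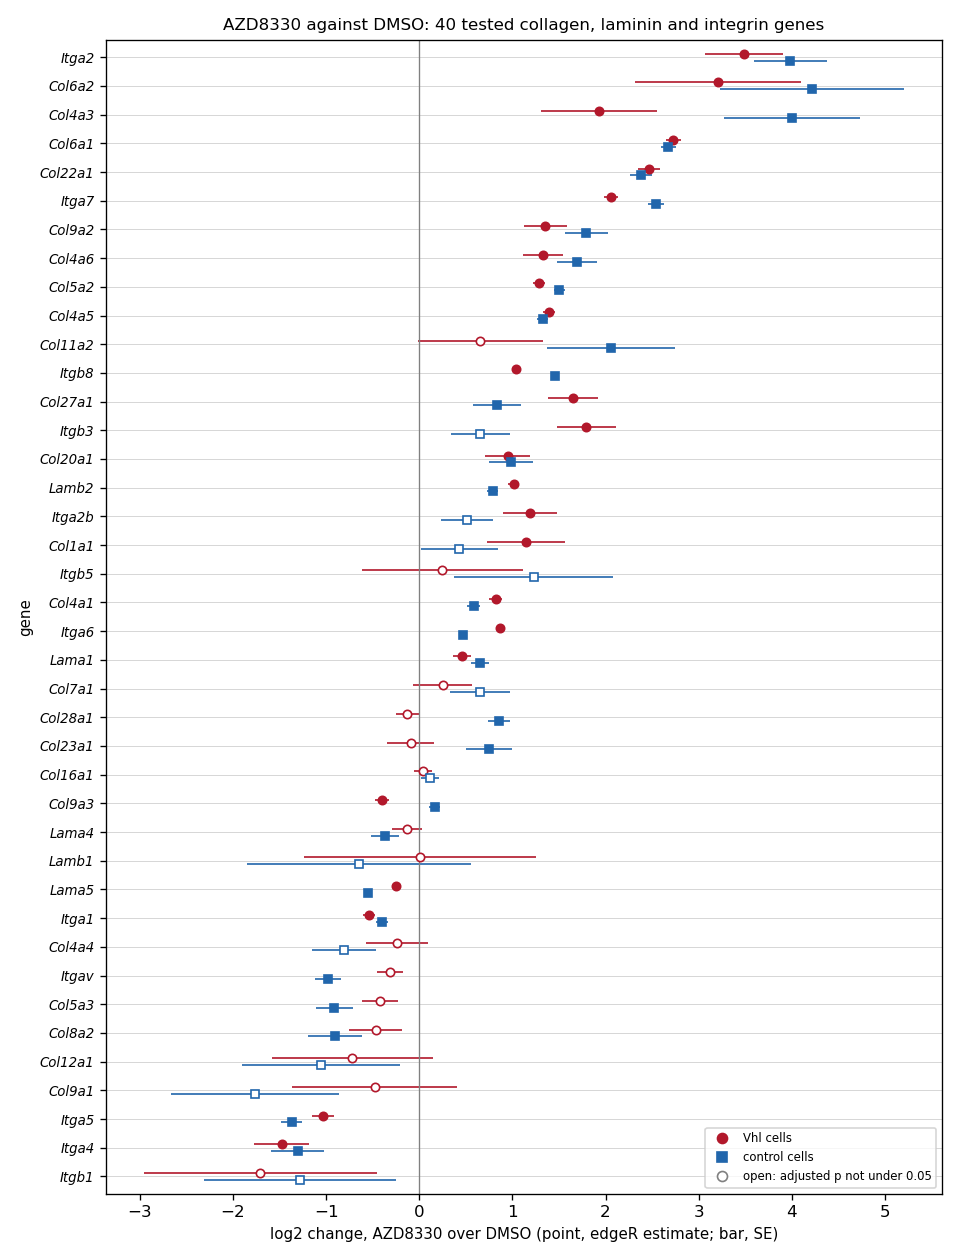
Log2 change with AZD8330 over DMSO of the 40 tested members in Vhl cells (red circles) and control cells (blue squares), with the edgeR estimate as the point and its SE as the bar; open symbols did not pass an adjusted p of 0.05. Rises stand on the right, led by Itga2, Col6a2, Col4a3, Col6a1 and Col22a1, and falls on the left, with Itga4 and Itga5 lower in both lines; the widest bars belong to members with few counts, such as Lamb1 and Itgb1.

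Of 23 collagens, 12 rose and 1 fell with the drug in Vhl cells and 15 rose and 2 fell in control cells. Among all tested genes, 25.8% rose and 25.6% fell in Vhl cells, and 29.1% rose and 31.7% fell in control cells. The type IV chains, the scaffold of basement membranes, include several of the called collagens. Col4a5 had 79.6, 82.1 and 75.9 CPM under AZD8330 and 28.7, 31.0 and 30.6 CPM under DMSO in Vhl cells. In control cells it had 110, 105 and 109 CPM under AZD8330 and 38.9, 44.6 and 45.9 CPM under DMSO. The groups did not overlap in either line, and the log2 change was 1.40 (SE 0.0644, adjusted p = 1.31e-09) in Vhl cells and 1.32 (SE 0.0614, adjusted p = 8.8e-10) in control cells. Its head-to-head neighbour Col4a6 had 8.37, 10.4 and 7.66 CPM under AZD8330 and 3.11, 3.01 and 4.39 CPM under DMSO in Vhl cells, and 10.04, 9.87 and 12.7 CPM against 3.12, 4.02 and 2.93 CPM in control cells. Both genes of the pair were thus higher in every AZD8330 library than in any DMSO library of their line, with log2 changes for Col4a6 of 1.33 (SE 0.21, adjusted p = 0.000162) in Vhl cells and 1.69 (SE 0.21, adjusted p = 1.32e-05) in control cells. Col4a1, which pairs with Col4a2 in the most common type IV trimer, had 150, 134 and 133 CPM under AZD8330 and 79.3, 79.6 and 77.7 CPM under DMSO in Vhl cells. In control cells Col4a1 had 141, 148 and 143 CPM under AZD8330 and 85.1, 104 and 99.5 CPM under DMSO. Its log2 change was 0.82 (SE 0.0675, adjusted p = 3.69e-07) in Vhl cells and 0.58 (SE 0.0662, adjusted p = 5.45e-06) in control cells.

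The remaining type IV genes were listed at low levels. Col4a2 lies head to head with Col4a1, with 21 bases between their starts and exons that overlap on opposite strands, and had no more than 0.826 CPM in any library, so it was not tested. Col4a3 and Col4a4 form the third head-to-head pair, with 72 bases between their starts. Col4a3 was called higher in both lines, from 99 summed counts in the 3 AZD8330 libraries and 24 in the 3 DMSO libraries of Vhl cells and 117 against 7 in control cells. Col4a4 averaged 1.41 CPM under AZD8330 and 1.67 CPM under DMSO in Vhl cells and 0.850 against 1.49 CPM in control cells, and was called in neither line (adjusted p = 0.589 and 0.0584). At these levels the size of a change is loosely set.

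Col6a1, which encodes a chain of the beaded filaments of type VI collagen (chr10:76708792-76726168, minus strand), had the largest log2 change in both lines among the members that reach 5 CPM, apart from Itga2. It had 105, 101 and 98.5 CPM under AZD8330 and 16.6, 15.4 and 14.0 CPM under DMSO in Vhl cells. Control cells had 102, 95.7 and 87.4 CPM under AZD8330 and 14.2, 14.1 and 16.3 CPM under DMSO. The 3 libraries of each group lay close together and far from the other medium, with log2 changes of 2.73 (SE 0.0805, adjusted p = 1.96e-11) in Vhl cells and 2.68 (SE 0.0799, adjusted p = 1.53e-11) in control cells. Col6a2, on the same strand of the same chromosome with 85161 bases between the genes, was also called higher in both lines, but from few counts: 85 under AZD8330 against 8 under DMSO in Vhl cells and 83 against 4 in control cells. Col6a3, the other chain of the classical type VI trimer, was not tested, with 20 counts over the 12 libraries.

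Col22a1 encodes a collagen with interrupted triple helices that is known from tissue junctions such as that between muscle and tendon. It had 72.2, 69.0 and 59.0 CPM under AZD8330 and 12.5, 12.2 and 11.5 CPM under DMSO in Vhl cells, and 61.7, 64.1 and 54.3 CPM against 11.0, 9.92 and 13.7 CPM in control cells. The groups were far apart in both lines, with log2 changes of 2.46 (SE 0.12, adjusted p = 1.66e-09) in Vhl cells and 2.38 (SE 0.12, adjusted p = 1.38e-09) in control cells. An antisense gene, Gm16308, overlaps its exons, and whether the counting used strand is not stated in the labels, so reads of the pair cannot be told apart. Col5a2, a minor fibrillar chain, had 94.1, 97.0 and 83.1 CPM under AZD8330 and 37.0, 36.0 and 39.6 CPM under DMSO in Vhl cells. Control cells had 145, 141 and 141 CPM under AZD8330 and 49.9, 48.6 and 52.3 CPM under DMSO. Its log2 change was 1.29 (SE 0.0620, adjusted p = 1.99e-09) in Vhl cells and 1.502 (SE 0.0595, adjusted p = 1.98e-10) in control cells.

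Type IX collagen coats cartilage-type fibrils and has 3 chains, whose calls differed. Col9a2 rose, with 10.2, 8.79 and 6.79 CPM under AZD8330 and 2.47, 4.30 and 3.25 CPM under DMSO in Vhl cells and 8.77, 10.9 and 9.20 CPM against 2.35, 3.02 and 2.93 CPM in control cells (log2 1.35, SE 0.23, and 1.79, SE 0.23; adjusted p = 0.000261 and 1.78e-05). Col9a3 was lower in Vhl cells, with 17.8, 16.0 and 16.5 CPM under AZD8330 and 21.4, 21.5 and 23.5 CPM under DMSO. In control cells Col9a3 had 49.6, 50.02 and 52.2 CPM under AZD8330 and 45.5, 43.1 and 46.9 CPM under DMSO. It was the only member called in opposite directions in the 2 lines, with log2 changes of −0.40 (SE 0.0706, adjusted p = 0.00037) in Vhl cells and 0.16 (SE 0.0637, adjusted p = 0.0406) in control cells, and the call in control cells was lost without any 1 of 4 libraries (control AZD8330 A or C, control DMSO A or B). The Col9a3 call in control cells was also lost with no filter on low values. Tcfl5 overlaps the exons of Col9a3 on the other strand. Col9a1 was called in neither line, with 3.11, 4.39 and 3.65 CPM under AZD8330 and 4.55, 4.51 and 6.504 CPM under DMSO in Vhl cells, and 6.42, 0.196 and 0 CPM against 8.53, 6.64 and 7.66 CPM in control cells. Its control AZD8330 libraries were scattered, and without library A of them it was called lower in control cells (adjusted p = 1.77e-06).

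Other collagens changed at lower listed levels. Col27a1, a fibrillar chain, averaged 7.94 CPM under AZD8330 and 2.53 CPM under DMSO in Vhl cells (log2 1.65, SE 0.27, adjusted p = 0.00019) and 7.39 against 4.13 CPM in control cells (log2 0.84, SE 0.26, adjusted p = 0.0127, and 0.0534 without control AZD8330 library C). Col20a1, a fibril-associated collagen, averaged 4.64 CPM under AZD8330 and 2.40 CPM under DMSO in Vhl cells and 5.22 against 2.64 CPM in control cells, and was higher in both. In control cells alone Col11a2, Col23a1 and Col28a1 were called higher and Col5a3 and Col8a2 lower, and in Vhl cells alone Col1a1 was called higher, but only Col28a1 was also called in the test of the difference between the lines. Col5a3, a type V chain, had 9.06, 8.52 and 9.41 CPM under AZD8330 and 14.4, 12.02 and 9.83 CPM under DMSO in Vhl cells, and 5.78, 5.30 and 7.98 CPM against 10.1, 11.2 and 14.5 CPM in control cells (adjusted p = 0.0875 and 0.00136). Col1a1, a chain of the main fibrillar collagen of connective tissue, had 3.18, 2.10 and 3.58 CPM under AZD8330 and 2.16, 1.16 and 0.681 CPM under DMSO in Vhl cells, and 1.59, 2.35 and 2.23 CPM against 1.91, 0.938 and 1.72 CPM in control cells. The Vhl groups overlapped, and its call there (log2 1.15, SE 0.42, adjusted p = 0.037) was lost without Vhl AZD8330 library A or C or Vhl DMSO library B or C. The Col1a1 call was also lost when only the 2 groups compared were fitted. Col16a1, Col12a1, Col7a1, Col9a1 and Col4a4 were called in neither line.

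Of 5 laminin chains, 2 rose and 1 fell in Vhl cells and 2 rose and 2 fell in control cells. The shares of all tested genes were 25.8% higher and 25.6% lower in Vhl cells, and 29.1% and 31.7% in control cells. Lamb2, the beta 2 chain, had 180, 169 and 174 CPM under AZD8330 and 81.0, 82.4 and 95.9 CPM under DMSO in Vhl cells. In control cells Lamb2 had 188, 189 and 192 CPM under AZD8330 and 105, 108 and 118 CPM under DMSO. Every AZD8330 library lay above every DMSO library of its line, and the log2 change was 1.01 (SE 0.0617, adjusted p = 1.97e-08) in Vhl cells and 0.79 (SE 0.0602, adjusted p = 1.17e-07) in control cells. Lama1, the alpha chain of the laminin of early embryos, rose, with 36.5, 35.6 and 36.6 CPM under AZD8330 and 25.2, 24.5 and 29.3 CPM under DMSO in Vhl cells and 36.0, 37.4 and 38.5 CPM against 21.1, 27.6 and 22.3 CPM in control cells (log2 0.46, SE 0.0988, and 0.65, SE 0.0987; adjusted p = 0.00164 and 7.31e-05).

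Lama5, an alpha chain found in many basement membranes, fell in both lines. It had 219, 204 and 211 CPM under AZD8330 and 246, 252 and 255 CPM under DMSO in Vhl cells. Control cells had 254, 236 and 244 CPM under AZD8330 and 336, 372 and 366 CPM under DMSO. The log2 change was −0.25 (SE 0.0443, adjusted p = 0.000407) in Vhl cells and −0.55 (SE 0.0436, adjusted p = 1.72e-07) in control cells. Lama4, an alpha chain known from vessel and nerve basement membranes, had 7.12, 9.44 and 8.47 CPM under AZD8330 and 7.10, 11.1 and 9.15 CPM under DMSO in Vhl cells, which overlap. In control cells it had 13.8, 14.7 and 13.7 CPM under AZD8330 and 17.1, 18.5 and 19.0 CPM under DMSO, and its call there (log2 −0.37, SE 0.15, adjusted p = 0.0498) was lost on leaving out any 1 of the 6 libraries. The Lama4 call was also lost with DESeq2, library totals alone, 1 of the limma fits, a mean of at least 5 CPM and no filter. Lamb1, the beta 1 chain, had 6.64, 0.721 and 0 CPM under AZD8330 and 5.19, 0.683 and 1.51 CPM under DMSO in Vhl cells, and 4.19, 0 and 5.25 CPM against 4.01, 4.02 and 6.73 CPM in control cells, with overlapping groups in both lines. Lamc1, the gamma 1 chain that most laminin trimers contain, had at most 0.908 CPM in any library.

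Of 12 integrins, 6 rose and 3 fell in Vhl cells and 4 rose and 4 fell in control cells. Across all tested genes 25.8% rose and 25.6% fell in Vhl cells. In control cells 29.1% rose and 31.7% fell, near the shares of the integrins there. Itga7, a laminin-binding alpha chain (chr10:128933818-128958282, plus strand), had 97.8, 94.6 and 104 CPM under AZD8330 and 20.9, 24.7 and 25.3 CPM under DMSO in Vhl cells. In control cells it had 69.8, 69.3 and 72.5 CPM under AZD8330 and 11.0, 12.2 and 13.2 CPM under DMSO. The 4 groups did not overlap, and the log2 change was 2.06 (SE 0.0760, adjusted p = 1.65e-10) in Vhl cells and 2.54 (SE 0.0814, adjusted p = 2.8e-11) in control cells. Mettl7b overlaps exons of Itga7 on the other strand. Itga6, the alpha chain of the main laminin receptor of oligodendrocyte lineage cells, had 265, 256 and 256 CPM under AZD8330 and 132, 143 and 148 CPM under DMSO in Vhl cells. In control cells it had 276, 268 and 267 CPM under AZD8330 and 188, 201 and 198 CPM under DMSO. Both lines rose, by a log2 of 0.87 (SE 0.0426, adjusted p = 2.32e-09) in Vhl cells and 0.47 (SE 0.0417, adjusted p = 5.26e-07) in control cells.

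Itga2 and Itga1 encode alpha chains of the collagen receptors α2β1 and α1β1. Itga2 had 4.56, 3.87 and 5.25 CPM under AZD8330 and 0.639, 0.273 and 0.303 CPM under DMSO in Vhl cells, and 11.1, 9.42 and 8.48 CPM against 0.636, 0.938 and 0.215 CPM in control cells. The summed counts were 197 against 16 in Vhl cells and 436 against 27 in control cells, with log2 changes of 3.49 (SE 0.42, adjusted p = 1.4e-05) and 3.99 (SE 0.39, adjusted p = 1.47e-06). Its neighbour Itga1 went the other way, with 26.2, 25.6 and 29.1 CPM under AZD8330 and 39.4, 39.2 and 39.0 CPM under DMSO in Vhl cells and 29.3, 30.1 and 27.5 CPM against 38.8, 38.8 and 37.3 CPM in control cells. Every AZD8330 library of Itga1 lay below every DMSO library of its line, and the log2 change was −0.54 (SE 0.0653, adjusted p = 1.41e-05) in Vhl cells and −0.40 (SE 0.0646, adjusted p = 0.000129) in control cells. A predicted protein-coding gene, Gm49395, overlaps exons of Itga1 on the same strand.

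Itga5 and Itga4 fell in both lines. Itga5, the alpha chain of the classical fibronectin receptor α5β1, had 14.1, 14.2 and 11.0 CPM under AZD8330 and 30.6, 25.1 and 24.8 CPM under DMSO in Vhl cells. Control cells had 13.7, 13.3 and 15.4 CPM under AZD8330 and 37.3, 37.1 and 35.1 CPM under DMSO. The log2 change was −1.03 (SE 0.12, adjusted p = 7.4e-06) in Vhl cells and −1.37 (SE 0.11, adjusted p = 2.78e-07) in control cells, with no overlap of groups. Itga4, which also binds VCAM1, averaged 1.15 CPM under AZD8330 and 3.21 CPM under DMSO in Vhl cells and 1.91 against 4.72 CPM in control cells, and was lower in both lines (log2 −1.48, SE 0.30, and −1.31, SE 0.28; adjusted p = 0.00101 and 0.00132); exons of Cerkl overlap it. Itgav, the shared alpha chain of the αv integrins, had 10.4, 13.4 and 14.1 CPM under AZD8330 and 14.6, 15.3 and 17.2 CPM under DMSO in Vhl cells, and 9.85, 9.42 and 11.0 CPM against 17.6, 19.7 and 22.4 CPM in control cells (log2 −0.31, SE 0.14, and −0.98, SE 0.14; adjusted p = 0.0749 and 3.91e-05).

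Itga2b, the alpha chain of the platelet fibrinogen receptor, had 3.66, 3.54 and 4.38 CPM under AZD8330 and 2.08, 1.71 and 1.29 CPM under DMSO in Vhl cells, and was called higher there (log2 1.19, SE 0.28, adjusted p = 0.00349). In control cells Itga2b had 3.05, 2.35 and 2.73 CPM under AZD8330 and 1.53, 1.61 and 2.58 CPM under DMSO, which overlap and were not called (log2 0.51, SE 0.28, adjusted p = 0.137), and the difference between the lines was not called (adjusted p = 0.324).

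Among beta chains that can pair with αv, Itgb8 rose in both lines and Itgb3 in Vhl cells. Itgb8 (chr12:119158022-119238802, minus strand), whose αvβ8 dimer is known for activating TGF-beta, had 359, 352 and 368 CPM under AZD8330 and 170, 176 and 179 CPM under DMSO in Vhl cells. Control cells had 451, 437 and 441 CPM under AZD8330 and 163, 167 and 156 CPM under DMSO. Replicates lay close together, and the log2 change was 1.04 (SE 0.0342, adjusted p = 5.7e-11) in Vhl cells and 1.45 (SE 0.0342, adjusted p = 2.29e-12) in control cells. Itgb3 had 9.33, 8.20 and 10.8 CPM under AZD8330 and 3.99, 1.71 and 2.50 CPM under DMSO in Vhl cells, and 3.56, 5.10 and 4.39 CPM against 3.44, 3.08 and 1.72 CPM in control cells. It was called in Vhl cells (log2 1.79, SE 0.32, adjusted p = 0.000398) and not in control cells (log2 0.66, SE 0.32, adjusted p = 0.0931), and the difference between the lines was not called (adjusted p = 0.129). Itgb5 had 10.6, 7.08 and 4.52 CPM under AZD8330 and 0, 8.95 and 9.68 CPM under DMSO in Vhl cells, and 11.4, 12.03 and 17.3 CPM against 2.67, 12.4 and 2.29 CPM in control cells. Itgb1, the beta partner of α1, α2, α5 and α7 and one of those of α6, had 0.138, 0 and 1.02 CPM under AZD8330 and 1.60, 1.98 and 0.151 CPM under DMSO in Vhl cells, and 3.49, 0.654 and 0.863 CPM against 0.445, 7.11 and 4.72 CPM in control cells. Libraries within a group were far apart for both genes and neither was called, and for Itgb1 in particular a low listed value does not show scarce mRNA.

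**Figure D2:**
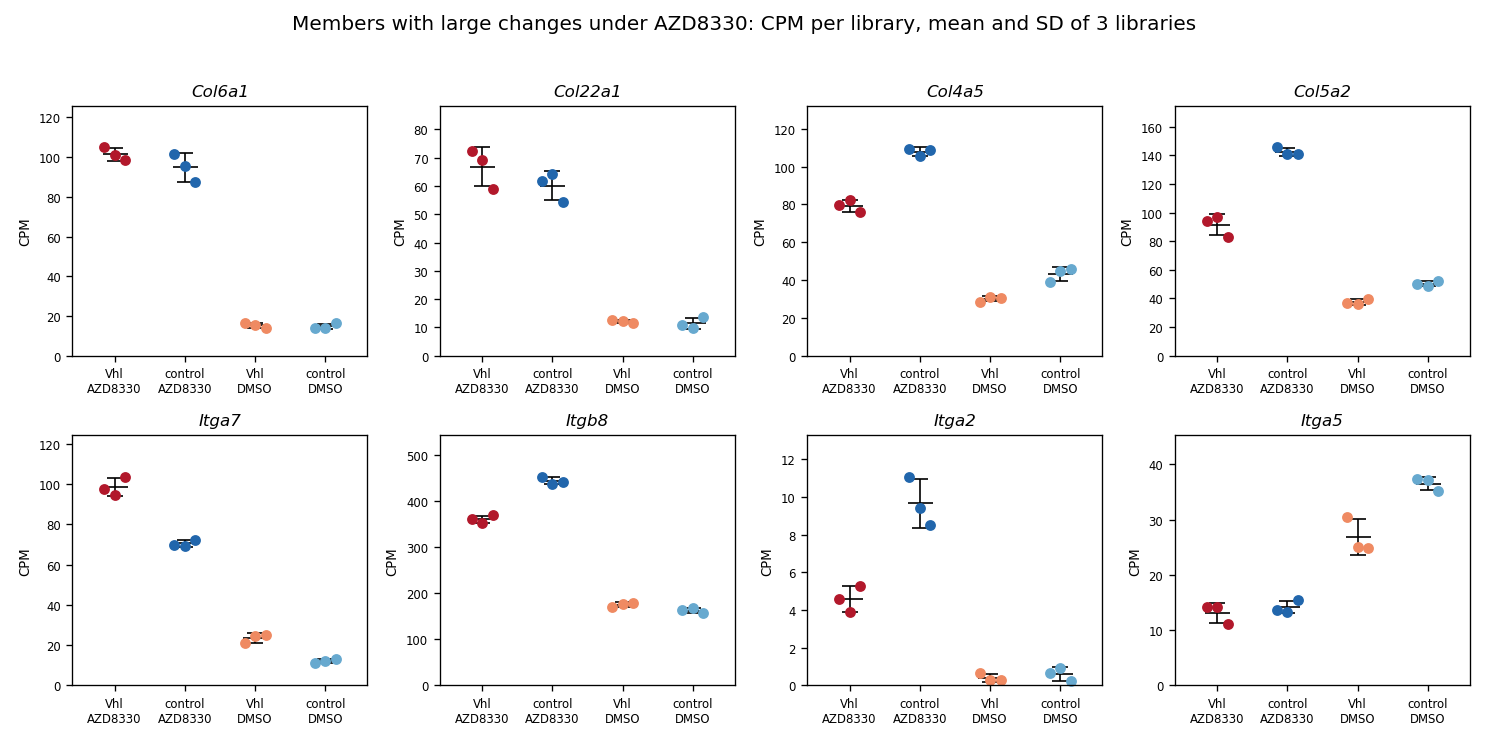
CPM of 8 members in each library (points) of Vhl and control cells under AZD8330 and DMSO, with the mean and SD of 3 libraries as black bars; each panel has its own axis from 0. Col6a1, Col22a1, Col4a5, Col5a2, Itga7, Itgb8 and Itga2 were higher in all AZD8330 libraries than in any DMSO library, and Itga5 was lower in all of them.

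Genes that work with these members were read from lists of other matrix and receptor genes. For comparison, 25.8% of all tested genes were higher and 25.6% lower in Vhl cells, and 29.1% and 31.7% in control cells. Of 19 tested genes for other basement membrane and matrix proteins, 12 were higher and 5 lower with AZD8330 in Vhl cells (median log2 0.95), and 12 higher and 6 lower in control cells (median 0.64). Tnc, tenascin C, a matrix glycoprotein of progenitor niches, fell to 228 ± 9.20 CPM under AZD8330, against 732 ± 16.2 CPM under DMSO, in Vhl cells (adjusted p = 1.82e-12), and to 115 ± 2.86 CPM, against 760 ± 19.8 CPM, in control cells (adjusted p = 3.28e-14). Agrn, agrin, a heparan sulfate proteoglycan of basement membranes, averaged 1754 ± 42.4 CPM under AZD8330 and 818 ± 19.0 CPM under DMSO in control cells (log2 1.10, SE 0.0316, adjusted p = 1.13e-11). Fbln1, the matrix glycoprotein fibulin 1, averaged 46.9 ± 2.50 CPM under AZD8330 and 126 ± 3.08 CPM under DMSO in control cells (log2 −1.42, SE 0.0496, adjusted p = 6.14e-11). In Vhl cells Sparc, a collagen-binding glycoprotein, averaged 396 ± 14.6 CPM under AZD8330 and 146 ± 1.42 CPM under DMSO (log2 1.44, SE 0.0472), and Fbn2, fibrillin 2, averaged 11.5 ± 0.392 against 68.8 ± 4.24 CPM (log2 −2.58, SE 0.0832).

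Of 19 non-integrin matrix receptors, 13 were higher and 3 lower in Vhl cells and 14 higher and 3 lower in control cells. Beside this and the following counts, 25.8% of all tested genes were higher and 25.6% lower in Vhl cells. The shares in control cells were 29.1% and 31.7%. Sgcb, a sarcoglycan of the dystroglycan complex, averaged 163 ± 3.44 CPM under AZD8330 and 98.1 ± 3.19 CPM under DMSO in Vhl cells and 173 ± 1.17 against 94.2 ± 1.95 CPM in control cells. Cd44, the hyaluronan receptor, averaged 48.6 ± 2.60 CPM under AZD8330 and 99.5 ± 7.06 CPM under DMSO in control cells (adjusted p = 1.32e-08). Of 26 integrin adaptors and signalling genes, 8 were higher and 5 lower in Vhl cells and 8 higher and 7 lower in control cells, with Vcl, the adhesion adaptor vinculin, at 289.9 ± 10.01 CPM under AZD8330 against 140.0 ± 3.36 CPM under DMSO in Vhl cells and 269 ± 7.16 against 145 ± 2.28 CPM in control cells. Tns1, tensin 1, and Bcar1, the adaptor p130Cas, were also higher in both lines. Of 19 genes for collagen folding, secretion and processing, 7 were higher and 3 lower in Vhl cells and 6 higher and 7 lower in control cells, with Colgalt1, which glycosylates collagen, and Crtap, part of the prolyl 3-hydroxylase complex, lower in both. Of 17 metalloproteinases and inhibitors, 7 were higher and 6 lower in Vhl cells and 8 higher and 6 lower in control cells. Timp2, a metalloproteinase inhibitor, averaged 304 ± 10.3 CPM under AZD8330 and 123 ± 7.60 CPM under DMSO in Vhl cells and 468 ± 3.93 against 168 ± 5.92 CPM in control cells, and Mmp15, a membrane-bound metalloproteinase, was lower in both lines.

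Between Vhl and control cells the called members were mostly lower in Vhl cells. Under AZD8330, 2 of 40 members (5%) were higher and 9 (22.5%) lower in Vhl cells, where 16.0% of all tested genes were higher and 14.0% lower. Under DMSO the counts were again 2 higher and 9 lower, where 13.8% of all tested genes were higher and 18.5% lower. That split under DMSO moves with the scaling: of all called genes, 42.6% were higher with TMM and 56.8% with library totals alone, which gave 4 higher and 9 lower members. The median log2 change of members was −0.11 under AZD8330 and −0.08 under DMSO, and that of all tested genes 0.01 and −0.03. Col9a3, Lama4, Col5a2, Col4a5 and Lama5 were lower in both media, Itga7 was higher in both, and Itgb8 was called in opposite directions. These 2 comparisons share no library. Marker lists differed between the lines as well. From the sums given above, within each medium the OPC list lay higher in all Vhl libraries than in any control library. So did the endothelial list and the pericyte list, which shares Cspg4 with the OPC list. The Schwann cell list lay lower. The astrocyte list lay lower in Vhl cells under AZD8330 and higher under DMSO. The fibroblast and mesenchymal list lay lower in Vhl cells under AZD8330, at 11.8 to 13.3 CPM against 17.1 to 20.5 CPM. Under DMSO its libraries overlapped between the lines, and those of the pluripotent list overlapped in both media. Within the OPC list Sox10 went against the sum, at 31.1 ± 3.76 CPM in Vhl cells against 97.5 ± 2.48 CPM in control cells under AZD8330 and 17.7 ± 2.40 against 51.3 ± 3.81 CPM under DMSO. The part of these markers in the changes of the members was not tested.

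Col9a3 (chr2:180597790-180622189, plus strand) had 17.8, 16.0 and 16.5 CPM in Vhl cells and 49.6, 50.02 and 52.2 CPM in control cells under AZD8330. Under DMSO it had 21.4, 21.5 and 23.5 CPM in Vhl cells and 45.5, 43.1 and 46.9 CPM in control cells. The groups were far apart, with log2 changes of −1.59 (SE 0.0681, adjusted p = 2.59e-09) under AZD8330 and −1.03 (SE 0.0670, adjusted p = 1.85e-07) under DMSO. Lama4 had log2 changes of −0.75 (SE 0.16, adjusted p = 0.00257) under AZD8330 and −0.99 (SE 0.16, adjusted p = 0.000313) under DMSO, and all 3 Vhl libraries lay below all 3 control libraries in both media. Col4a5 was lower in Vhl cells by a log2 of −0.45 (SE 0.0591, adjusted p = 8.24e-05) under AZD8330 and −0.52 (SE 0.0660, adjusted p = 6.48e-05) under DMSO, while its pair partner Col4a6 was called in neither medium (adjusted p = 0.295 and 0.877). Col5a2 was lower by −0.64 (SE 0.0571, adjusted p = 2.66e-06) and −0.42 (SE 0.0636, adjusted p = 0.00024), and Lama5 by −0.21 (SE 0.0442, adjusted p = 0.00256) and −0.51 (SE 0.0437, adjusted p = 2.05e-06).

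Called under DMSO only, and lower in Vhl cells, were Itga6, Itga5, Lamb2 and Col4a1. Itga6 averaged 141 ± 8.25 CPM in Vhl cells and 196 ± 6.76 CPM in control cells under DMSO (log2 −0.47, SE 0.0428, adjusted p = 3.99e-06). Under AZD8330 it averaged 259 ± 5.04 CPM in Vhl cells and 271 ± 5.06 CPM in control cells, a difference that did not pass although the libraries did not overlap (adjusted p = 0.288). Lamb2, Itga5 and Col4a1 had log2 changes of −0.35 (SE 0.0625, adjusted p = 9e-04), −0.45 (SE 0.11, adjusted p = 0.00768) and −0.29 (SE 0.0684, adjusted p = 0.00628) under DMSO.

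Called under AZD8330 only were Itga2, Col28a1 and Col23a1, lower in Vhl cells, and Itgb3, higher. Itga2 had a log2 change of −1.08 (SE 0.33, adjusted p = 0.0251), which was no longer called without Vhl AZD8330 library A or B or control AZD8330 library A. The Itga2 call was also lost under 1 of the limma fits. Itgb3 had a log2 change of 1.12 (SE 0.31, adjusted p = 0.015), which was no longer called without Vhl AZD8330 library C or control AZD8330 library A. Col28a1, a collagen with von Willebrand factor domains known from peripheral nerve, had 15.6, 12.3 and 14.3 CPM in Vhl cells and 23.4, 23.1 and 20.1 CPM in control cells under AZD8330 (log2 −0.66, SE 0.12, adjusted p = 0.000907).

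Itga7 was higher in Vhl cells by a log2 of 0.48 (SE 0.0695, adjusted p = 0.000158) under AZD8330 and 0.97 (SE 0.0865, adjusted p = 3.29e-06) under DMSO. In untreated cells it averaged 25.2 ± 6.74 CPM in Vhl cells and 40.5 ± 16.0 CPM in control cells, with overlapping libraries and no call (log2 −0.69, SE 0.37, adjusted p = 0.634). Itgb8 was lower in Vhl cells under AZD8330 (log2 −0.30, SE 0.0330, adjusted p = 1.56e-05) and slightly higher under DMSO (log2 0.11, SE 0.0347, adjusted p = 0.0252). The DMSO call of Itgb8 was lost without Vhl DMSO library B or C or control DMSO library A or C, under both limma fits and with no filter on low values.

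**Figure D3:**
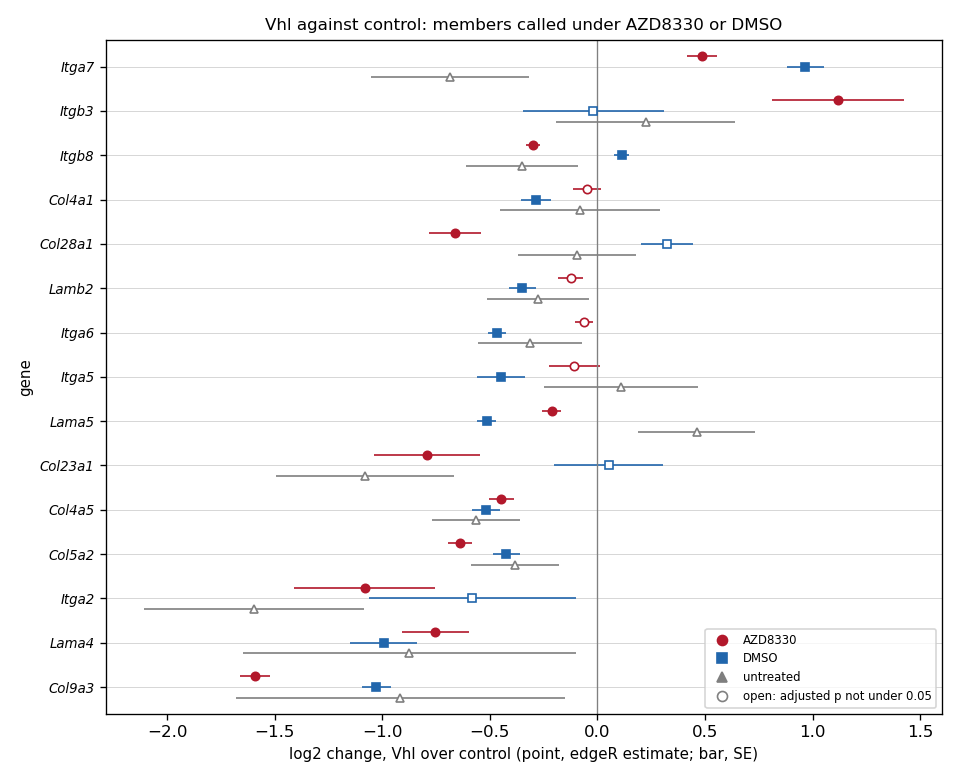
Log2 change in Vhl over control cells of the 15 members called under AZD8330 or DMSO, shown for AZD8330 (red circles), DMSO (blue squares) and untreated cells (grey triangles), with the edgeR estimate as the point and its SE as the bar; open symbols did not pass an adjusted p of 0.05. Col9a3, Lama4, Col5a2 and Col4a5 are among the members left of 0 in all 3 settings, as are Itga2 and Itga6, and the untreated bars are the widest.

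The lists around the members held both directions here too, except the other basement membrane and matrix genes under DMSO, with 0 higher. Among all tested genes, 16.0% were higher and 14.0% lower in Vhl cells under AZD8330, and 13.8% and 18.5% under DMSO. Of 19 other basement membrane and matrix genes, 4 were higher and 9 lower in Vhl cells under AZD8330, and 0 higher and 9 lower under DMSO. Nid2, nidogen 2, which connects laminin and type IV collagen sheets, averaged 11.9 ± 0.495 CPM in Vhl cells and 23.9 ± 1.18 CPM in control cells under DMSO (log2 −1.004, SE 0.0816, adjusted p = 1.37e-06). Tnc averaged 228 ± 9.20 CPM in Vhl cells and 115 ± 2.86 CPM in control cells under AZD8330 (log2 0.99, SE 0.0375, adjusted p = 8.93e-10). Of 19 genes for collagen folding, secretion and processing, 7 were higher and 5 lower under AZD8330 and 6 higher and 8 lower under DMSO. Plod2, a lysyl hydroxylase, averaged 179 ± 5.24 CPM in Vhl cells and 60.2 ± 1.95 CPM in control cells under AZD8330 and 133 ± 11.4 against 45.3 ± 2.90 CPM under DMSO, while Serpinh1, the collagen chaperone HSP47, averaged 526 ± 13.8 CPM in Vhl cells and 825 ± 41.8 CPM in control cells under DMSO (adjusted p = 8.31e-08). Of 19 non-integrin receptors, 5 were higher and 4 lower under AZD8330 and 3 higher and 7 lower under DMSO. Adgrg1, also called GPR56, was lower in both. It averaged 806 ± 10.6 CPM in Vhl cells against 1170 ± 16.1 CPM in control cells under AZD8330. Under DMSO it averaged 932 ± 5.996 CPM in Vhl cells against 1203 ± 16.2 CPM in control cells. Of 26 adaptors, 6 were higher and 4 lower under AZD8330 and 6 higher and 5 lower under DMSO, with Bcar1 at 141 ± 6.72 CPM in Vhl cells against 80.2 ± 2.004 CPM in control cells under AZD8330 and 89.8 ± 0.827 against 44.9 ± 1.32 CPM under DMSO. Of 17 metalloproteinases and inhibitors, 5 were higher and 4 lower under AZD8330 and 4 higher and 3 lower under DMSO, with Mmp2, gelatinase A, lower in both (log2 −1.73, SE 0.15, and −1.40, SE 0.14) and Mmp16 higher in both (log2 0.62, SE 0.0435, and 0.91, SE 0.0451).

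In untreated cells 0 of 42 members were called in either direction between Vhl and control cells by edgeR's quasi-likelihood test, where 0.0147% of all 13569 tested genes were higher and 0% lower. At an unadjusted p under 0.05 there were 5 members, as there were 1267 of all 13569 genes, Itga1 and Col6a1 with higher means and Itga2, Col23a1 and Col4a5 with lower means in Vhl cells, and DESeq2 called 1, Itga1, where it called 246 genes higher and 109 lower of 13506. The A libraries of both groups stood apart from B and C, as in Sox10, an oligodendrocyte lineage factor, which had 327, 15.3 and 16.0 CPM in Vhl cells and 527, 88.1 and 87.8 CPM in control cells. Among the 42 members, library A lay more than 2-fold above the mean of B and C for 7 in Vhl cells and 9 in control cells and more than 2-fold below it for 9 and 6. Libraries B and C were not counted in the same way. Col9a3 had 146, 35.0 and 21.6 CPM in libraries A, B and C of Vhl cells and 226, 79.8 and 77.3 CPM in those of control cells. Lama4 followed the same split, with 31.4, 6.55 and 9.60 CPM in Vhl cells and 59.4, 13.4 and 14.8 CPM in control cells. For both genes library A of Vhl cells was above libraries B and C of control cells, so the groups overlapped.

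Itga1 had 17.2, 33.6 and 36.7 CPM in untreated Vhl cells and 14.2, 9.12 and 11.4 CPM in untreated control cells, which do not overlap (log2 1.34, SE 0.34, adjusted p = 0.278). Without both A libraries its adjusted p was 0.0259 (log2 1.78, SE 0.19), and Lama5 was called as well (log2 0.90, SE 0.10, adjusted p = 0.0283); without library A of Vhl cells alone Itga1 had an adjusted p of 0.0245. With all libraries Lama5 had 143, 223 and 226 CPM in Vhl cells and 190, 117 and 124 CPM in control cells, which overlap. In the drug experiment Itga1 was called in neither medium between Vhl and control cells (adjusted p = 0.268 under AZD8330 and 0.749 under DMSO), and Lama5 was lower in Vhl cells in both. Col4a5 had 21.6, 26.7 and 19.4 CPM in untreated Vhl cells and 37.2, 31.6 and 31.3 CPM in untreated control cells, which do not overlap but did not pass (log2 −0.56, SE 0.21, adjusted p = 0.463). Of the pathway lists, 0 genes of any were called in untreated cells.

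Other members showed the split between library A and the others, or overlapping groups, in untreated cells. Itga7 had 17.5, 27.8 and 30.2 CPM in Vhl cells and 22.0, 51.1 and 48.3 CPM in control cells, and Itgb8 had 181, 303 and 351 CPM in Vhl cells and 356, 346 and 364 CPM in control cells. Itga6 had 192, 257 and 254 CPM in Vhl cells and 209.7, 333 and 330.3 CPM in control cells, and Col4a1 had 109, 264 and 201 CPM in Vhl cells and 130.4, 233 and 243 CPM in control cells. Library A was the lowest of its group for Itga7, Itga6 and Col4a1 in both lines and for Itgb8 in Vhl cells. Lamb2 had 90.0, 114 and 109 CPM in Vhl cells and 169, 102 and 109 CPM in control cells, and Col5a2 had 87.8, 62.8 and 63.3 CPM in Vhl cells and 108, 81.8 and 89.4 CPM in control cells, with library A highest in control cells for both. Itgav had 7.05, 27.0 and 14.1 CPM in Vhl cells and 14.2, 11.2 and 12.1 CPM in control cells, and Itga5 had 12.4, 10.7 and 6.49 CPM in Vhl cells and 11.3, 6.25 and 9.98 CPM in control cells. Itgb1 had 3.48, 9.66 and 48.6 CPM in Vhl cells and 8.53, 2.65 and 15.1 CPM in control cells, Itgb3 had 2.83, 7.06 and 6.17 CPM in Vhl cells and 5.74, 3.81 and 4.18 CPM in control cells, and Lama1 had 12.6, 35.9 and 35.9 CPM in Vhl cells and 22.6, 34.9 and 34.9 CPM in control cells. Lamb1 had 4.36, 5.02 and 9.22 CPM in Vhl cells and 2.797, 3.095 and 5.48 CPM in control cells, and Itgb5 had 10.53, 0 and 4.71 CPM in Vhl cells and 14.6, 1.16 and 16.8 CPM in control cells. The groups of all these members overlapped and none was called. Col6a1 had 3.66, 4.004 and 4.26 CPM in Vhl cells and 2.44, 2.05 and 1.83 CPM in control cells, and Itga2 had 0.556, 0.699 and 1.14 CPM in Vhl cells and 1.29, 3.21 and 2.74 CPM in control cells; for these 2 genes the libraries did not overlap, yet neither passed (adjusted p = 0.436 and 0.401). Col1a1, with 18.6, 11.9 and 11.000 CPM in Vhl cells and 4.37, 4.53 and 13.0 CPM in control cells, was listed higher here than in the drug experiment, but the tables were fitted apart, so levels across them were not tested.

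**Figure D4:**
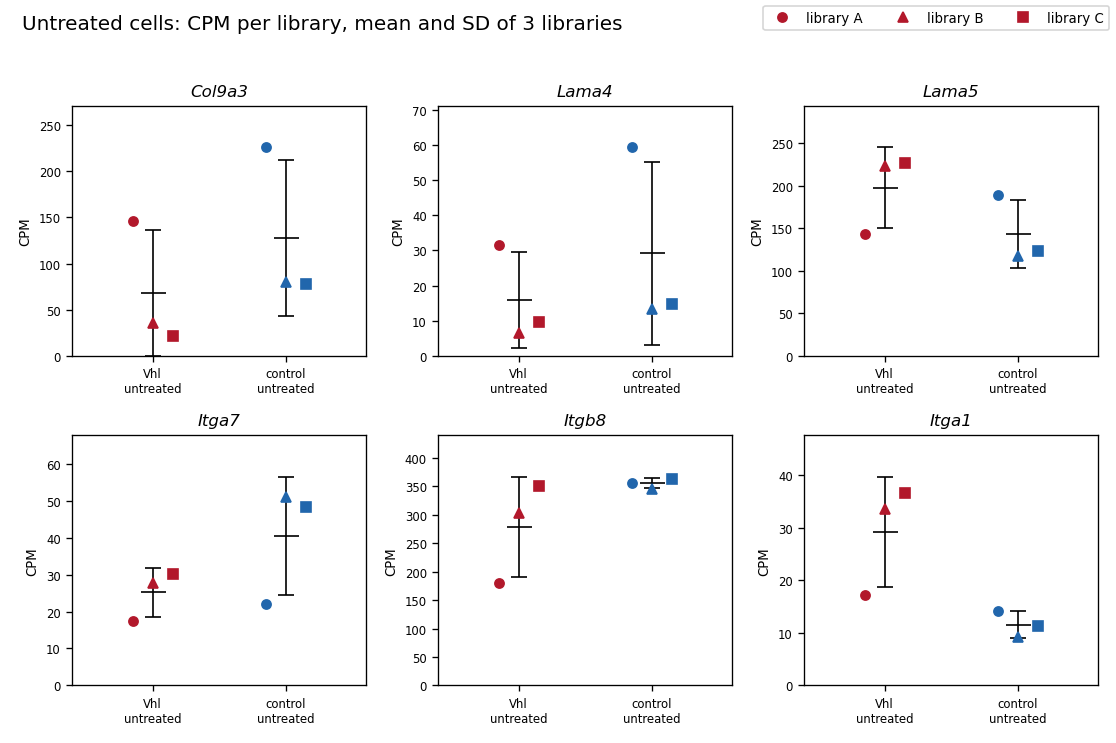
CPM of 6 members in the untreated Vhl and control libraries, with library A as a circle, B as a triangle and C as a square, and the mean and SD of 3 libraries as black bars; each panel has its own axis from 0, which ends the lower bar of Col9a3 in Vhl cells. Col9a3 and Lama4 were highest in library A of both groups, and Itga7 lowest there.

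The change with AZD8330 was compared between the lines as a test of the difference itself. Of 40 members, 3 had a difference above 0 (the change in Vhl cells minus that in control cells) and 4 below, where 7.81% of all tested genes were above and 4.96% below. With library totals alone 2 members were above and 4 below, and 43.8% of all called genes were above 0, against 61.2% with TMM. Itgb8 and Itga7 rose less in Vhl cells, with log2 differences of −0.41 (SE 0.0479, adjusted p = 0.000149) and −0.48 (SE 0.11, adjusted p = 0.0135). Col28a1 had 14.0 ± 1.66 CPM under AZD8330 and 15.3 ± 1.68 CPM under DMSO in Vhl cells and 22.2 ± 1.80 against 12.3 ± 0.644 CPM in control cells, a difference of −0.98 (SE 0.17, adjusted p = 0.00237). Col9a3 had a difference of −0.56 (SE 0.0951, adjusted p = 0.00208). On the other side, the rise of Itga6 was larger in Vhl cells, by 0.40 (SE 0.0595, adjusted p = 0.00089), and with AZD8330 its level in Vhl cells came close to that in control cells. The fall of Lama5 was smaller in Vhl cells, by 0.30 (SE 0.0621, adjusted p = 0.00728), a call lost without Vhl AZD8330 library A or C or control AZD8330 library B or C. For Itgav the difference was 0.67 (SE 0.19, adjusted p = 0.0411), a call lost on leaving out any 1 of 9 of the 12 libraries. The Itgav call was also lost with library totals alone, under both limma fits and with a mean of at least 5 CPM. Tnc, from the list of other matrix proteins, differed by 1.04 (SE 0.0510, adjusted p = 3.29e-07).

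**Figure D5:**
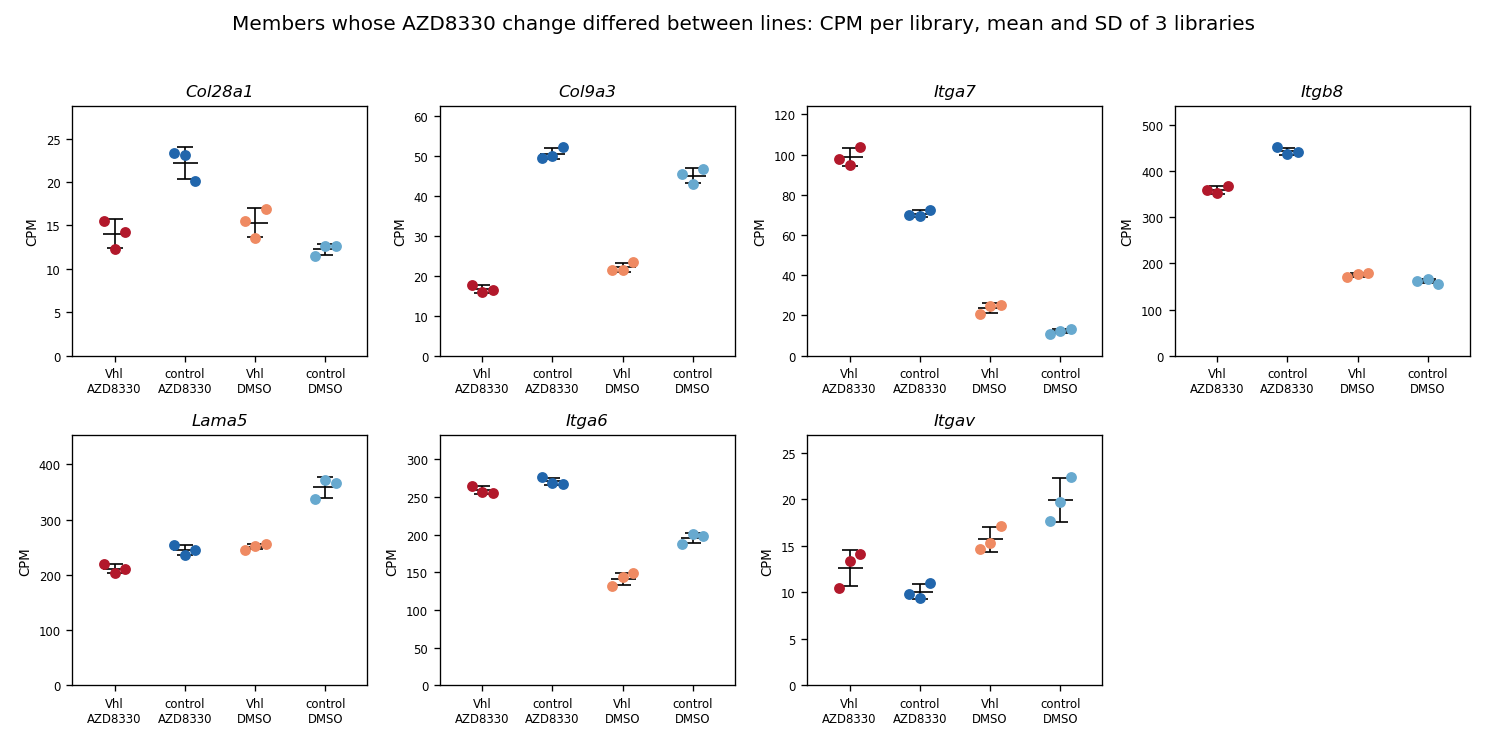
CPM of the 7 members whose change with AZD8330 differed between the lines, in each library (points) of the 4 drug groups, with the mean and SD of 3 libraries as black bars; each panel has its own axis from 0. Col28a1 was highest in the AZD8330 libraries of control cells, Col9a3 was lower in all Vhl libraries than in any control library, and the DMSO groups of Itga6 lay further apart than its AZD8330 groups.

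Of the 82 members, 38 were tested in neither table, 18 collagens, 6 laminins and 14 integrins. Col5a1 and Itgb6 had no counts in any of the 18 libraries. Of the 38, 13 reached 1 CPM in at least 1 library, led by Itga3 with 5.94 CPM in control DMSO library C and no more than 2.23 CPM elsewhere in the drug table. Col3a1, a fibrillar chain of soft connective tissue, had 3 counts over the 12 drug libraries and 8 over the 6 untreated ones. Lama2, an alpha chain known from muscle and white matter, had 55 and 5 counts. Lama3 and Lamb3, chains of the laminin of epithelia, had 151 and 170 counts over the 12 drug libraries, and Itgam and Itgb2, integrins of immune cells, had 16 and 9. Col1a2 was tested in the untreated table only, with 5.89, 5.59 and 1.84 CPM in Vhl cells and 1.29, 1.11 and 4.24 CPM in control cells (adjusted p = 0.717). Col19a1, Col26a1 and Itga10 were likewise tested only there and not called, and Col4a6 and Col6a2 were tested only in the drug table.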

How the data were processed

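The authors deposited 2 RNA-seq tables, of 6 untreated and 12 drug libraries. Salmon 0.14.1 and mm10 are named in the submitters' processing notes; the annotation, the step to genes and the strandedness are not stated there. The deposited tables are named TPM, but their values are estimated counts, since column totals differ between libraries (12391077 to 21160250); 57.7% and 58.8% of values above 0 are whole within 0.001. They were rounded to whole numbers. Another 2 columns of the untreated table are means by the authors and stayed out; the one named VHL equals, within 3.3e-05, the mean of Vhl A, control B and control C.

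Each table was fitted alone with edgeR 4.0.16 (R 4.3.3): a filter at 1 CPM on a gene's mean, TMM scaling, the quasi-likelihood test over all tested genes, and Benjamini-Hochberg adjustment per comparison with a threshold of 0.05. The 4 drug groups shared 1 fit. The SE of a log2 change is its size divided by the square root of F. CPM are counts relative to the TMM-scaled total. DESeq2 1.42.0 and limma 3.58.1 were alternatives, with library totals alone, other filters, left-out libraries and a replicate block. The script was tested on simulated data. Motifs were searched in promoter windows from RefSeq (GRCm38.p6). Figures were drawn with matplotlib.

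The members, lists and tests were chosen with earlier results of these data known. Named members were 18 fixed members that passed the filter and called members that reach 5 CPM. The called ones were, per comparison, up to 6 with the largest rise and 6 with the largest fall. Most named members are given by the values in every library. Exceptions include Col27a1, given by means, Col28a1 under DMSO, given by mean and SD, and Col9a1 in untreated cells, not given. From up to 3 called genes of each list per comparison, some are given by means or by name. Other members are given by means or counts. Counting error alone is not the limit on low members; their replicates scatter more. The result of 1 further marker list is not reported here.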

Additional observations from a re-analysis of the deposited data

Results flagged for a closer look

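For 7 members the change with AZD8330 over DMSO differed between Vhl and control cells in the test of that difference (edgeR's quasi-likelihood test over 13460 genes). The difference, taken as the log2 change in Vhl cells minus that in control cells, was -0.98 for Col28a1 (adjusted p = 0.00237), -0.56 for Col9a3 (adjusted p = 0.00208), -0.48 for Itga7 (adjusted p = 0.0135) and -0.41 for Itgb8 (adjusted p = 0.000149). It was 0.30 for Lama5 (adjusted p = 0.00728), 0.40 for Itga6 (adjusted p = 0.00089) and 0.67 for Itgav (adjusted p = 0.0411). Col28a1, Col9a3, Itga7, Itgb8 and Itga6 kept their direction and call under each of the 19 other settings tried.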

How the results depend on the processing

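Of 70 called changes of named members, 61 kept their direction and call under every alternative run in which the member was tested, 9 lost the call in at least 1 and 0 reversed. Col1a1, Itga2 and Itgb3 were not tested with a mean of at least 5 CPM. Called members outside the named ones, such as Col4a3 and Col6a2, were not followed singly. Counts of higher members moved as follows. Under AZD8330 in Vhl against control cells, 2 became 1 with a mean of at least 5 CPM, and leaving out 1 library gave 1 to 3 (1 without Vhl AZD8330 C). Under DMSO, 2 became 4 with library totals only, 4 with a mean of at least 5 CPM and 1 with no filter, and 1 to 3 without 1 library (1 without Vhl DMSO C). For the difference between lines, 3 became 6 with no filter, and 1 to 4 without 1 library (1 without control AZD8330 B or C or Vhl AZD8330 C). In untreated cells, 0 became 1 with DESeq2, 2 without both A libraries, and 0 to 1 without 1 library (1 without Vhl A). With a mean of at least 5 CPM, 20 of 40 became 13 of 23 tested members higher for AZD8330 in Vhl cells. In control cells 8 of 40 became 5 of 23 lower. For runs other than library totals and DESeq2, the share of all tested genes called was not counted, so these moves cannot be set against it. The letters A to C paired the libraries weakly at most (correlations of same-lettered deviations -0.0809 to 0.0527). Each letter correlated best with the same letter between the lines under DMSO and for the drug in Vhl cells. In the other comparisons not every letter did. A replicate block gave 3 higher and 10 lower under DMSO, 3 and 9 under AZD8330, and 20 and 6 for the drug in Vhl cells. It gave 21 and 8 in control cells, 3 and 4 for the difference and 0 and 0 in untreated cells. Over all genes under DMSO, the share of higher genes among calls was 42.6% with TMM and 56.8% with library totals; for the difference it was 61.2% and 43.8%. The cause of these moves was not tested.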
